A study of Homo sapiens with 24 samples.

Results

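Heat shock chaperones and their co-chaperones are described here across the 8 groups of an RNA-seq series on the zinc finger transcription factor ZFX. The set was chosen by symbol: 40 listed symbols were looked up in GENCODE 29, where they match 41 of the 58721 gene IDs with counts, because HSPA14 has 2 IDs. No measured value of the deposited counts enters that lookup, but the symbols were chosen with earlier results of these data known. The set holds the cytosolic HSP70 and HSP110 proteins, the mitochondrial chaperones, HSP90 with its co-chaperones, small heat shock proteins, J-domain proteins, the BAG family with the ubiquitin ligase STUB1, and the heat shock factors HSF1 and HSF2.

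Molecular chaperones bind unfolded protein and keep it from aggregating. HSP70 binds and releases clients in an ATP cycle that J-domain proteins start and that nucleotide exchange factors, the HSP110 and BAG proteins, reset. HSP90 takes partly folded clients, many of them kinases and steroid receptors, from HSP70 with the help of co-chaperones. HSF1 is the main activator of these genes under stress and binds repeats of a short element in their promoters, while HSPA8 and HSP90AB1 are also made in unstressed cells.

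Expression was measured in 24 libraries, 3 per group. LN-229 is an established human glioblastoma line, labelled wild type, and gave 5 groups that received siRNA: a control siRNA (siControl), an siRNA to ZFX (siZFX), one to ZNF593 (siZNF593), both together (siZFX_siZNF593, the double knockdown) and a further set of control siRNA (siControl_2). ZNF593 is another zinc finger protein. The labels describe both control sets alike; siControl_2 is tied to the double knockdown through how its deposited table is named. The other 3 groups are 293T cells, a human embryonic kidney line, that all carry a knockout of ZFX and its paralog ZNF711 (DKO cells). They were transfected with the empty vector (pCMV6), wild-type ZFX with a FLAG tag (wtZFX), or a ZFX FLAG construct named ZFX12_13, which the series counts among mutant constructs without saying what the name means. The number of knockout clones is not stated. The series calls the 3 libraries of a group biological replicates but does not say that cultures were separate, so p-values measure the spread between these libraries, which may be technical.

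Libraries held 16774179 to 30159260 gene counts in LN-229 and 16223239 to 24272308 in DKO cells. With siZFX, ZFX fell from 45.7 to 55.1 CPM (gene counts scaled to a common library size) in siControl to 12.6 to 19.7 CPM, and in the double knockdown to 24.1 to 28.6 CPM, so ZFX was lowered less there. ZNF593 has 0 unstranded counts, because a gene on the opposite strand covers it. Both stranded columns summed gave 27.1 to 31.4 CPM in siControl, 1.38 to 2.53 CPM with siZNF593 and 2.51 to 3.25 CPM in the double knockdown, a sum that also holds that gene's reads. In DKO cells ZFX stood at 217 to 235 CPM with pCMV6, 14582 to 16908 CPM with wtZFX and 16186 to 22517 CPM with ZFX12_13; counts on a whole gene do not check a knockout. All 8 glial markers were above 1 CPM in LN-229, with GFAP low at 1.43 to 8.77 CPM, as were 6 of them in DKO cells. In DKO cells 8 of 9 kidney markers were above 1 CPM, but PAX8 was not. In LN-229 3 of the 9 were, with PAX8 at 8.54 to 17.4 CPM, so this threshold alone does not tell the lines apart. Replicate 3 of the double knockdown stood apart: its correlation of log2 CPM across genes was 0.9847 with replicate 1 and 0.9859 with replicate 2, against 0.9931 or more for each pair of libraries within the other groups. Members named as called in that group are given with and without it.

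A script searched RefSeq promoters (GRCh38.p14, 250 bases before to 50 after a start) for a heat shock element of 3 alternating units, written GAANNTTCNNGAA or, on the other strand, TTCNNGAANNTTC. Promoters were found for 34 of the 40 symbols. The element stood in 172 of 35116 promoters (0.49%), or in those of 166 of 27305 genes (0.608%), and in those of 7 of the 34 members (20.6%): HSP90AA1, HSPD1, HSPA8, CHORDC1, DNAJA1, HSP90AB1 and DNAJB6. The stretches around it are shown for the 6 of these with the largest changes, since the results turn on several of them. Capitals mark the matched letters, 5′ to 3′ on the gene's strand, and overlapping matches are joined. They lie at chr14:102087111-102087140 (minus strand), chr2:197500061-197500090 (minus), chr11:123062170-123062199 (minus), chr11:90223083-90223112 (minus), chr9:33025268-33025297 (plus) and chr6:44247823-44247852 (plus), in the order printed.
HSP90AA1: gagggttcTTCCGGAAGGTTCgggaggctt
HSPD1: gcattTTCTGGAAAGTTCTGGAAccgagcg
HSPA8: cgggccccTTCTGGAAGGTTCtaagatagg
CHORDC1: ccgGAAAATTCGCGAAGGTTCCTGAAacgc
DNAJA1: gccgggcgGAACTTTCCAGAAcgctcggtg
HSP90AB1: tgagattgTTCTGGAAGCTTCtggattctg
The first matched base lies 88 bases before the start in HSP90AA1, 245 in HSPD1, 55 in HSPA8, 60 in CHORDC1 and 112 in HSP90AB1, and 4 bases after it in DNAJA1. HSPA8 and HSP90AB1 have 2 matches each, of which 1 is shown. CHORDC1 has 3 overlapping matches and HSPD1 has 2. The core of the ZFX motif, AGGCCT (the same on both strands), stood in the promoters of 13% of all genes and of 2 members (5.88%), DNAJA1 and HSPD1. A match is a run of letters and not a shown binding site. Only this exact form in this window was searched, so members without a match may hold the element in another form or place.

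In the control groups of both lines, which were transfected too, the set was led by the same few genes. Per kilobase of exon, HSP90AB1 was highest in siControl, at 572 ± 14 CPM per kb (mean ± SD, n = 3), followed by HSPA8 at 441 ± 20, HSP90AA1 at 343 ± 17, the small heat shock protein HSPB1 at 258 ± 8.0 and the mitochondrial chaperonin HSPD1 at 185 ± 4.4. With pCMV6 the order began with HSP90AB1 at 521 ± 3.3, HSP90AA1 at 338 ± 5.4 and HSPA8 at 219 ± 5.7 CPM per kb. The levels of these neighbours in the order did not overlap between libraries. Next in siControl came DNAJA1, a J-domain partner of HSP70, at 148 ± 8.9 CPM per kb and PTGES3 at 135 ± 7.5, whose libraries overlapped, then STIP1 at 104 ± 3.8. HSPA4, an HSP110, at 74.7 ± 3.6 overlapped with HSPA9 at 68.9 ± 2.4 CPM per kb. At the foot stood HSPA2, an HSP70 best known from testis, at 0.0963 ± 0.019 CPM per kb in siControl, and in DKO cells the lens and muscle chaperone CRYAB at 0.0735 ± 0.025 CPM per kb, too low to be tested there.

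Comparing the 6 LN-229 control libraries with the 3 pCMV6 libraries, 18 members were higher in LN-229 in every library, 15 in DKO cells, and 8 overlapped. Over the 21087 genes tested in either line, some in 1 line only, 24.2% were higher in LN-229 and 54.3% in DKO cells in every library. Scaling factors were set within each line apart, so levels share no scale across the lines beyond library size. Some counted differences are small. The means differed 1.08-fold for HSPA4 and 1.06-fold for DNAJB6, both counted as higher in LN-229. The cell line, the knockout and the kind of transfection cannot be told apart, and no test was made. HSPA2 ran from 0.431 to 0.620 CPM in LN-229 controls and from 16 to 18 CPM with pCMV6. CHORDC1, an HSP90-binding protein, ran from 21.6 to 34.2 and from 100.2 to 102 CPM. HSPB1 went the other way, at 408 to 536 CPM in LN-229 controls and 103 to 107 CPM with pCMV6, as did the J-domain protein DNAJB1 at 207 to 231 against 69.0 to 74.8 CPM. The stress-inducible HSP70 genes HSPA1A and HSPA1B are near-identical copies, so reads that fit both cannot be assigned to 1 of them. HSPA1B also shares 36.5% of its exon sequence with another gene of its strand, where reads were not counted, and HSPA1A 0%. The ratio of HSPA1B to HSPA1A was 0.724 ± 0.0060 in siControl and 42.4 ± 2.5 with pCMV6 (n = 3), and their separate levels are uncertain.

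**Figure D1:**
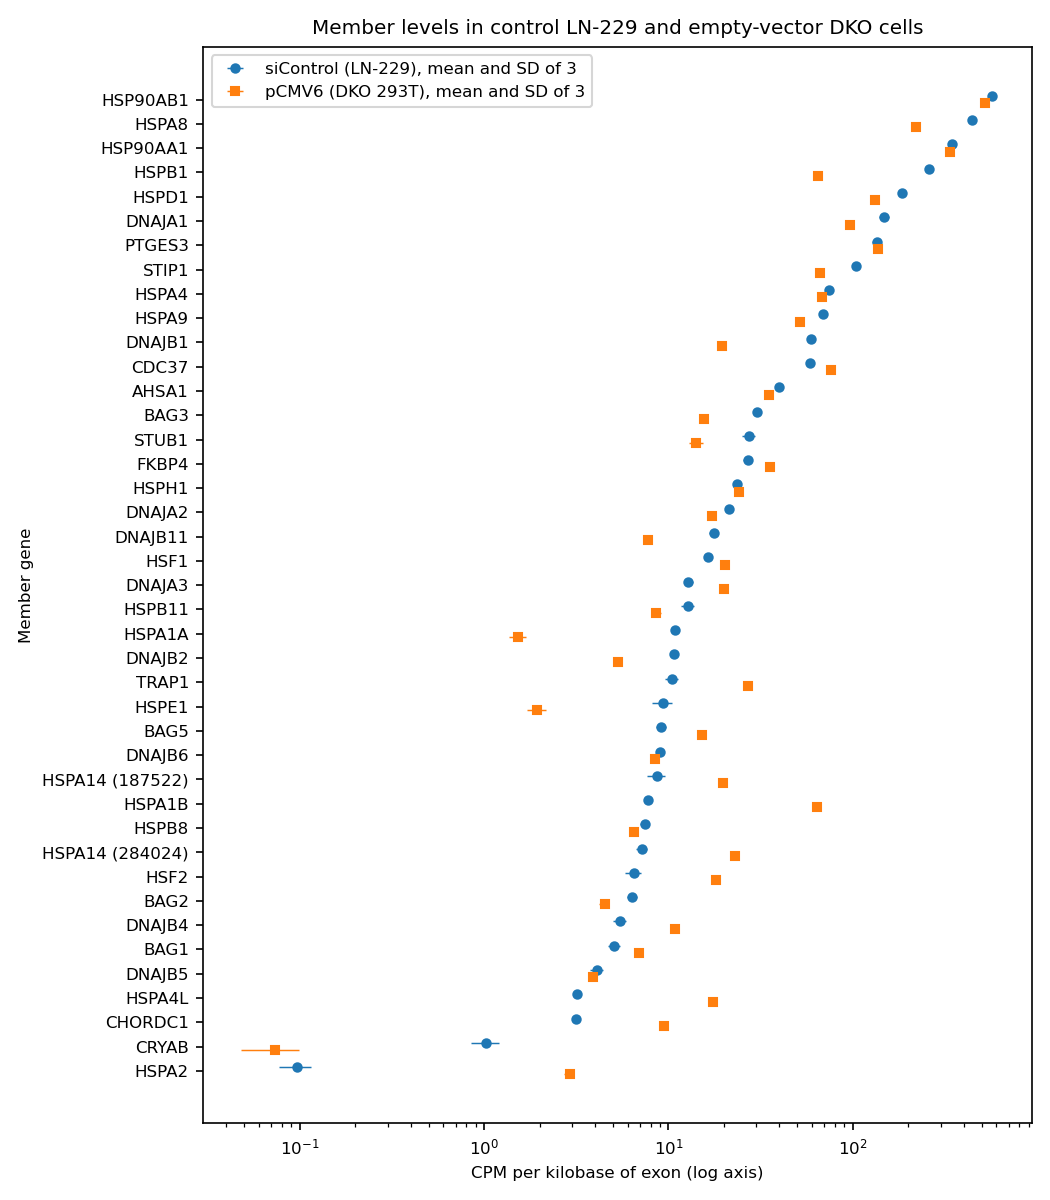
Level of each member (rows, in the siControl order) in CPM per kilobase of exon on a log axis, for siControl LN-229 cells (circles) and pCMV6 DKO cells (squares), as mean and SD of 3 libraries. HSP90AB1, HSP90AA1 and HSPA8 are highest in both lines; HSPA2 and HSPA1B are higher in DKO cells, and HSPA1A, HSPE1 and CRYAB in LN-229.

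The comparison of siZFX with siControl asks what changes when ZFX is lowered in LN-229. HSP90 and a group of its co-chaperones fell, as did HSPA8, the mitochondrial HSPD1 and HSPA9, and most steeply HSPB8, a small heat shock protein that works with BAG3 to clear misfolded protein. Of 41 IDs tested, 11 fell and 4 rose (15 called, edgeR's quasi-likelihood test, Benjamini-Hochberg adjusted p under 0.05 over all genes). Over all 17684 genes tested, 30.9% were called, 17.1% lower and 13.8% higher. The median log2 change was -0.14 for the set and 0.02 for all genes.

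HSPB8 (ENSG00000152137.6, chromosome 12, 119178642 to 119221131) stood at 20.2, 22.5 and 20.9 CPM in siControl and at 4.29, 3.47 and 3.42 CPM with siZFX. No siZFX library came near a control, and the level was 5.69-fold lower (log2 change -2.51, SE 0.17, adjusted p = 1.3e-10). HSP90AA1 (ENSG00000080824.18, chromosome 14, 102080738 to 102139699), the stress-inducible cytosolic HSP90, stood at 1741, 1901 and 1761 CPM in siControl and at 990.1, 958 and 1015 CPM with siZFX. The groups were far apart, and the fall was 1.82-fold (log2 change -0.87, SE 0.07, adjusted p = 3.9e-09). Its constitutive partner HSP90AB1 fell less, from 1704 ± 42 to 1375 ± 33 CPM (log2 fold change -0.31, SE 0.06, adjusted p = 0.000541). In each library the ratio of HSP90AA1 to HSP90AB1 was 1.01 to 1.10 in siControl and 0.678 to 0.753 with siZFX, so the gene pair shifted toward the constitutive form.

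Among the helpers of HSP90, STIP1, which hands clients from HSP70 to HSP90, fell from 484 ± 18 to 308 ± 6.3 CPM (log2 fold change -0.65, SE 0.06, adjusted p = 4.1e-08). FKBP4, an immunophilin of steroid receptor complexes, fell 1.67-fold, from 140 ± 7.6 to 83.3 ± 5.7 CPM (log2 fold change -0.74, SE 0.07). AHSA1, which stimulates the HSP90 ATPase, fell by 0.24 on the log2 scale (adjusted p = 0.0251), a call lost without any of 5 libraries (adjusted p up to 0.106 without siZFX replicate 3). CDC37, which loads kinases, PTGES3 (p23), which steadies the closed form of HSP90, and CHORDC1 were not called, with log2 changes of 0.12, -0.06 and 0.15.

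HSPA8, the constitutive HSP70, stood at 2108, 2247 and 2058 CPM in siControl and at 1431, 1405 and 1396 CPM with siZFX. The groups did not overlap (log2 change -0.60, SE 0.07, adjusted p = 1e-06). HSPH1, an HSP110 exchange factor, fell from 198 ± 3.6 to 145 ± 4.6 CPM (log2 change -0.45, adjusted p = 3.3e-05). HSPD1, the HSP60 that folds protein inside mitochondria, fell 1.56-fold, from 786 ± 19 to 503 ± 9.7 CPM, and HSPA9, the mitochondrial HSP70, fell 1.23-fold, from 569 ± 20 to 461 ± 13 CPM. HSF2, a stress and development factor that can pair with HSF1, fell from 17.5 ± 1.7 to 9.26 ± 0.77 CPM (log2 fold change -0.92, SE 0.14, adjusted p = 2.9e-05).

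The 4 that rose come from 3 of these families. DNAJB4 (ENSG00000162616.8, chromosome 1, 77979175 to 78017964), a J-domain partner of HSP70, went from 18.9, 22.2 and 20.6 CPM to 41.7, 41.1 and 40.3 CPM, with every siZFX library above every control (log2 change 1.0, SE 0.12, adjusted p = 8.7e-07). BAG2, which restrains STUB1, rose from 42.3 ± 2.8 to 61.1 ± 3.8 CPM (log2 change 0.53, adjusted p = 9.2e-05), with 44.2% of its exon sequence shared with genes of the other strand. HSPA1A rose from 26.8 ± 1.2 to 35.9 ± 2.6 CPM (log2 change 0.42, adjusted p = 0.00407), while its copy HSPA1B changed by 0.17 (adjusted p = 0.365). HSPA2 rose from 0.556 ± 0.11 to 1.47 ± 0.22 CPM (log2 fold change 1.39, SE 0.46, adjusted p = 0.0232), a low level whose call was lost without any of 5 libraries (adjusted p up to 0.0892 without siControl replicate 3). HSF1 itself was not called, at 87.3 ± 4.0 and 81.9 ± 6.4 CPM, nor were DNAJB1, HSPB1 and BAG3. The summed level of the set was 11233 ± 381 CPM in siControl and 8676 ± 127 CPM with siZFX. In bulk samples fewer cells of a type and less RNA per cell cannot be told apart. The glial marker sum was 4890 to 4954 CPM in siControl and 4004 to 4109 CPM with siZFX, and the sum of 3 fibroblast markers 75.4 to 87.0 and 122 to 132 CPM; their part in these results was not tested.

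**Figure D2:**
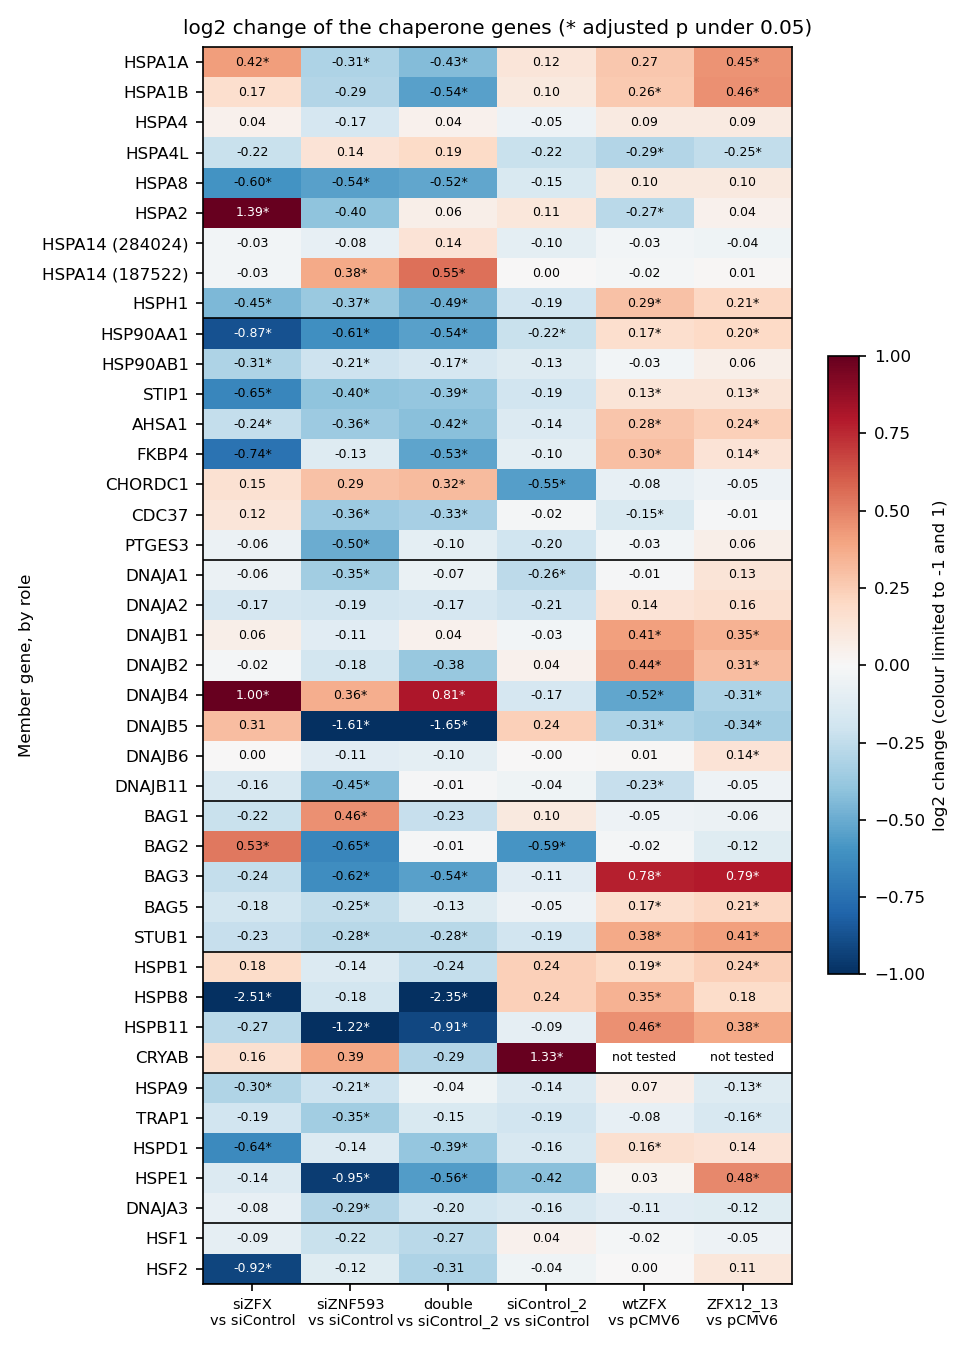
Log2 change of each of the 41 IDs (rows, grouped by role) in 6 comparisons (columns: the 3 knockdowns against their controls, the control sets, and the 2 constructs against pCMV6), printed in each cell and coloured from -1 to 1, with a star where the adjusted p was under 0.05. HSPB8 falls most with siZFX and in the double knockdown, DNAJB5 with siZNF593, and BAG3 rises most with both ZFX constructs.

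With siZNF593 more of the set fell, in part other genes. HSPA8, HSP90AA1, STIP1, HSPH1 and AHSA1 fell here too, with the J-domain protein DNAJB5, HSPB11, the mitochondrial co-chaperonin HSPE1, BAG3, DNAJB11 and PTGES3. Both single knockdowns were set against the same 3 siControl libraries, so falls seen with both are not independent. The summed level of the set was 11233 ± 381 CPM in siControl and 10235 ± 327 CPM in siControl_2. Of 41 IDs, 21 fell and 3 rose (24 called), where over all genes 26.8% were called, 14.6% lower and 12.2% higher. The median log2 change was -0.25, against 0.02 for all genes. With offsets for GC content and length, 19 members fell and 5 rose, while the share of rises among all called genes went from 45.6% to 59.1%.

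DNAJB5 (ENSG00000137094.14, chromosome 9, 34989641 to 34998900), a class B partner of HSP70, stood at 24.6, 25.8 and 21.8 CPM in siControl and at 9.56, 7.29 and 6.74 CPM with siZNF593. It was 3.05-fold lower with no overlap (log2 change -1.61, SE 0.14, adjusted p = 8.5e-09). HSPB11 (ENSG00000081870.11, chromosome 1, 53916574 to 53945929), named as a small heat shock protein but known as the ciliary transport subunit IFT25, stood at 37.6, 44.2 and 41.8 CPM and at 17.1, 20.9 and 15 CPM. The fall was 2.33-fold (log2 change -1.22, SE 0.12, adjusted p = 7.8e-08). HSPE1, the lid of the HSPD1 chaperonin, fell from 18.4 ± 2.2 to 9.48 ± 1.4 CPM (log2 change -0.95, adjusted p = 2.7e-05), while HSPD1 changed by -0.14 (adjusted p = 0.147). HSPE1 shares 23.9% of its exon sequence with HSPD1 and the read-through gene HSPE1-MOB4. Reads over more than 1 gene were not counted, so its counts come from the rest of its exons. The source of its low level was not tested.

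BAG3, the stress-induced exchange factor that pairs with HSPB8, stood at 82.8, 82.3 and 82.8 CPM in siControl and at 55.3, 54.9 and 51.2 CPM with siZNF593 (a log2 difference of -0.62, SE 0.11, adjusted p = 0.000116). HSP90AA1 was at 1056, 1299 and 1194 CPM with siZNF593, below each control library (log2 change -0.61, SE 0.07, adjusted p = 9.7e-07). HSPA8 was at 1391, 1597 and 1429 CPM, again below each control library (log2 change -0.54, SE 0.07, adjusted p = 5.8e-06). PTGES3 fell from 460 ± 25 to 325 ± 24 CPM (log2 change -0.50, adjusted p = 9.5e-06), and BAG2 fell from 42.3 ± 2.8 to 26.9 ± 2.9 CPM (log2 change -0.65, adjusted p = 1.5e-05). All 5 genes of the BAG and STUB1 group were called, 4 lower. The calls of BAG5 (-0.25) and STUB1 (-0.28) were lost without 1 library or another (adjusted p up to 0.134 and 0.132), with upper-quartile factors and with GC and length offsets (STUB1 -0.11, adjusted p = 0.634). BAG1, which links HSP70 to the proteasome, rose from 36.0 ± 2.6 to 49.4 ± 3.0 CPM (log2 change 0.46, adjusted p = 0.00393). DNAJB4 rose too (log2 change 0.36, adjusted p = 0.0327), as did the HSPA14 ID ENSG00000187522.15 (log2 change 0.38, adjusted p = 0.0139), which shares exons with the other HSPA14 ID. Of these 24 calls, 9, DNAJB4 and that HSPA14 ID among them, were lost without 1 library or another, with adjusted p up to 0.164 for DNAJB4 without siControl replicate 1 and 0.124 for HSPA14 without siZNF593 replicate 2. The glial marker sum was 3128 to 3143 CPM and the fibroblast sum 119 to 143 CPM with siZNF593, and their part in these results was not tested.

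Tested directly against each other, the single knockdowns differed for 25 members, 16 higher with siZFX and 9 lower. Over all genes 40.5% differed, 19.8% higher and 20.7% lower, and the median log2 difference was 0.12 for the set and -0.03 for all genes. HSPB8 was lower with siZFX (log2 difference -2.33, SE 0.17, adjusted p = 2.1e-10), and so were FKBP4 at -0.61, HSPD1 at -0.51, HSF2 at -0.79 and BAG1 at -0.67. DNAJB5 (1.92, SE 0.14), BAG2 (1.18, SE 0.09), HSPB11 (0.95, SE 0.12), HSPE1 (0.81, SE 0.15), HSPA1A (0.73, SE 0.11) and PTGES3 (0.44, SE 0.07) were higher with siZFX than with siZNF593. HSPA8 (-0.06, SE 0.07, adjusted p = 0.536), HSPH1 (-0.08, SE 0.07, adjusted p = 0.417) and AHSA1 (0.12, SE 0.08, adjusted p = 0.282) were not called. HSP90AA1 was lower with siZFX (-0.26, adjusted p = 0.00575; 0.0521 without siZNF593 replicate 2).

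**Figure D3:**
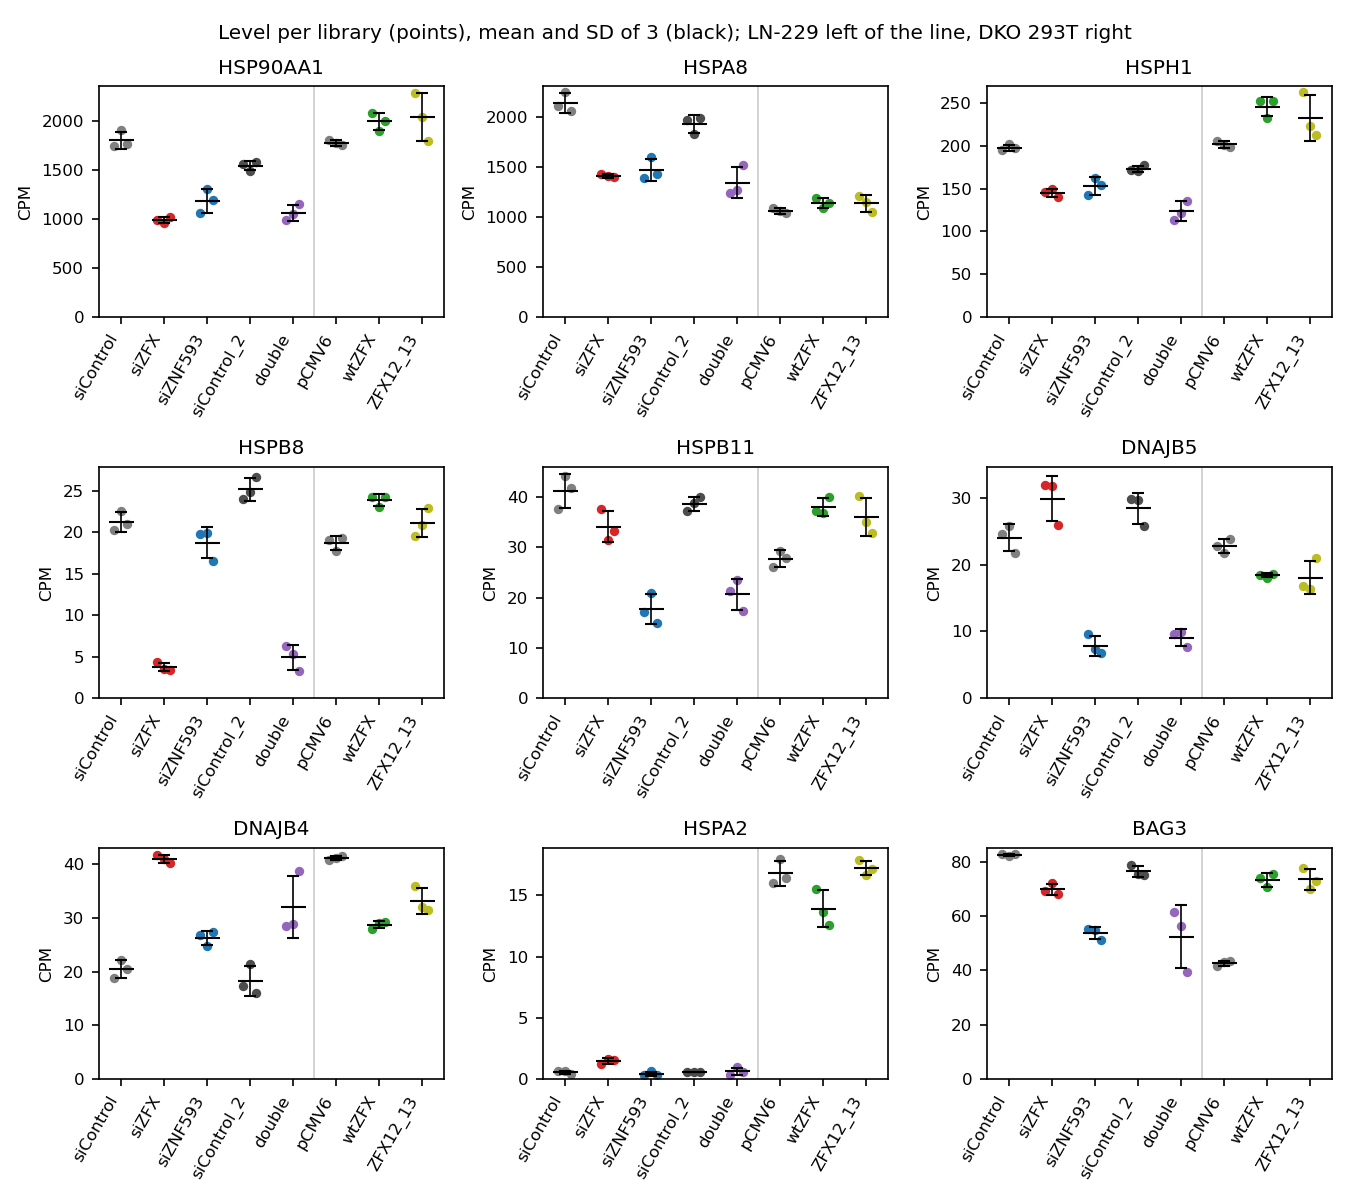
CPM of 9 members in each of the 24 libraries (points), with the mean and SD of each group in black; each panel has its own axis from 0. HSPB8 is low in the siZFX and double knockdown libraries, DNAJB5 and HSPB11 in the siZNF593 and double knockdown libraries, and BAG3 is higher with both ZFX constructs than with pCMV6.

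HSPB8, DNAJB5 and HSPB11 fell and DNAJB4 rose in the double knockdown. HSPB8 stood at 24.0, 24.8 and 26.7 CPM in siControl_2 and at 6.26, 5.26 and 3.29 CPM in the double knockdown, 5.09-fold lower (log2 change -2.35, SE 0.16, adjusted p = 2e-10). DNAJB5 stood at 29.9, 29.8 and 25.8 CPM and at 9.56, 9.98 and 7.60 CPM (log2 fold change -1.65, SE 0.14, adjusted p = 3.1e-09). HSPB11 fell from 38.7 ± 1.4 to 20.6 ± 3.1 CPM (log2 change -0.91), and DNAJB4 rose from 18.3 ± 2.8 to 32.1 ± 5.8 CPM (log2 fold change 0.81, SE 0.12, adjusted p = 1.5e-05). None of these 4 overlapped between the groups. Of 41 IDs, 17 fell and 3 rose (20 called), where over all genes 38.2% were called, 20.6% lower and 17.6% higher. The median log2 change was -0.24 for the set and 0.01 for all genes. With GC and length offsets 18 members fell and 5 rose, and the share of rises among all called genes went from 46.1% to 56.2%.

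HSP90AA1 fell from 1542 ± 46 to 1061 ± 84 CPM (log2 fold change -0.54, SE 0.07, adjusted p = 3.2e-06) and HSPA8 from 1928 ± 91 to 1343 ± 152 CPM (log2 change -0.52, adjusted p = 5.8e-06). The inducible copies HSPA1A and HSPA1B fell together, by 0.43 and 0.54 on the log2 scale (adjusted p = 0.0032 and 0.00226), calls that did not hold with GC and length offsets (-0.10, adjusted p = 0.394, and -0.23, adjusted p = 0.0965). FKBP4, STIP1, HSPH1, AHSA1, HSPD1, HSPE1 and BAG3 fell as well, with log2 changes from -0.39 to -0.56. HSF2, lower with siZFX, did not pass here (log2 change -0.31, adjusted p = 0.088). Nor did BAG2 (-0.01, adjusted p = 0.969), but against siControl, the control of the single knockdowns, BAG2 fell (log2 change -0.59, adjusted p = 2.3e-05). Replicate 3 lay below replicates 1 and 2 in BAG3 (39.4 against 61.5 and 56.6 CPM), CDC37 (103 against 156 and 159 CPM), HSPB1 (288 against 512 and 473 CPM) and DNAJB2 (32.4 against 62.2 and 55.4 CPM). Without it 19 members fell and 2 rose. HSPB8 then changed by -2.12, DNAJB5 by -1.54, HSPB11 by -0.79, DNAJB4 by 0.66, HSP90AA1 by -0.59, HSPA8 by -0.61 and BAG3 by -0.37, all called. HSPA1A (-0.31), HSPA1B (-0.43), FKBP4 (-0.54), STIP1 (-0.34), HSPH1 (-0.56), AHSA1 (-0.39), HSPD1 (-0.44) and HSPE1 (-0.55) were called too, as was HSF2 (-0.48, adjusted p = 0.0032), and BAG2 was not (-0.03); CDC37 was no longer called (log2 change -0.15, adjusted p = 0.0626), nor was CHORDC1 (0.22, adjusted p = 0.0846). The glial marker sum was 3532 to 3616 CPM in the double knockdown and 4712 to 4868 CPM in siControl_2, and the fibroblast sum 169 to 217 and 132 to 147 CPM; their part in these results was not tested.

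The design also allows a test of whether the change with both siRNAs equals the sum of the single changes on the log2 scale, each against its own control set. For HSP90AA1 the change with both siRNAs, -0.54, was smaller than either single change, -0.87 and -0.61, each against its own control set, and stood 0.93 above their sum (SE 0.14, adjusted p = 0.000228). Against siControl the change with both siRNAs was -0.76, between the single ones. The same excess was 0.65 for STIP1 (SE 0.13, adjusted p = 0.00209), 0.62 for HSPA8 (SE 0.14, adjusted p = 0.0113), 0.61 for the ER protein DNAJB11 (SE 0.15, adjusted p = 0.0186) and 0.47 for HSPA9 (SE 0.13, adjusted p = 0.0299). These 5 were the members called, all higher than the sum, and over all genes 5.65% were called, 3.85% higher and 1.81% lower. For HSPB8 (0.34, SE 0.31) and DNAJB5 (-0.36, SE 0.27) a departure from the sum was not detected. The median over the set was 0.22, against -0.01 for all genes. ZFX was lowered less in the double knockdown, which bears on every such sum, and its part was not tested. Without double knockdown replicate 3, 10 members lay above the sum and 1 below. Over all genes 1334 then lay above and 713 below of 18227, against 680 and 320 of 17684 in the main fit. Without that replicate HSP90AA1 stood at 0.89, STIP1 at 0.71, HSPA8 at 0.54, DNAJB11 at 0.59 and HSPA9 at 0.42. Without siControl replicate 2 the count was 2, HSP90AA1 and STIP1, and over all genes 405 lay above and 146 below. With GC and length offsets 7 members were above and 1 below, and over all genes 1113 were above and 938 below. The share of genes above the sum among all called went from 68% to 54.3%.

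**Figure D4:**
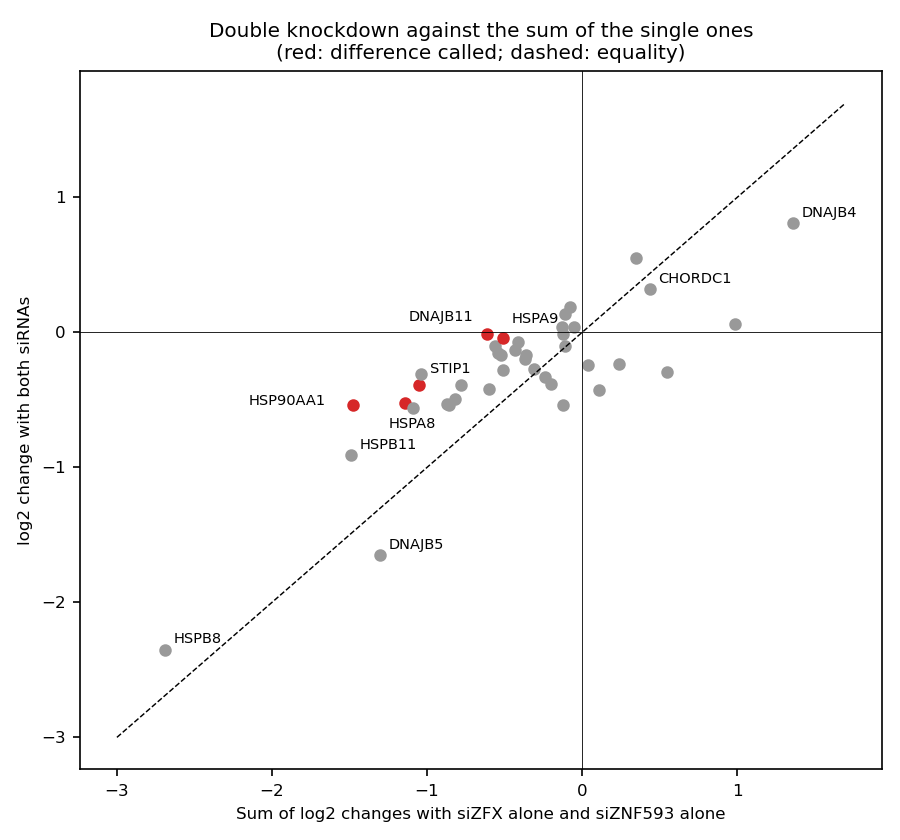
Change in the double knockdown (vertical, log2) against the sum of the single-knockdown changes (horizontal, log2) for the 41 IDs, with a dashed line of equality and red for members whose difference was called. The 5 red points, HSP90AA1, STIP1, HSPA8, DNAJB11 and HSPA9, lie above the line; HSPB8 and DNAJB5 have the lowest values in the double knockdown.

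The control sets of LN-229 were compared to see how far libraries with 1 treatment label differ. CRYAB, a small heat shock protein, was 2.52-fold higher in siControl_2, at 8.75, 7.07 and 7.82 CPM against 3.5, 3.33 and 2.5 CPM (log2 difference 1.33, SE 0.20, adjusted p = 4.8e-05), and its libraries did not overlap. BAG2 was lower at 28.2 ± 1.7 against 42.3 ± 2.8 CPM (log2 difference -0.59, adjusted p = 0.000139), as were CHORDC1 (-0.55, adjusted p = 0.00156), DNAJA1 (-0.26, adjusted p = 0.0199; 0.121 without siControl replicate 2) and HSP90AA1 (-0.22, at the threshold, adjusted p = 0.05). Of 41 IDs, 5 were called, 4 lower and 1 higher, where over all genes 10.3% were called, 4.88% lower and 5.43% higher. The median was -0.10 for the set and -0.00 for all genes. The fibroblast marker sum was 132 to 147 CPM in siControl_2 and 75.4 to 87.0 CPM in siControl, and its part in these differences was not tested. CHORDC1 was higher in the double knockdown than in siControl_2 (log2 change 0.32, adjusted p = 0.0271), but lower than in siControl (-0.23, adjusted p = 0.0916), so its direction depends on the control set. CRYAB likewise changed by -0.29 (adjusted p = 0.24) against siControl_2 and by 1.04 against siControl.

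In DKO cells the comparison of wtZFX with pCMV6 asks what changes when ZFX is supplied. BAG3 rose most, and HSPB11, DNAJB2, DNAJB1, STUB1, HSPB8, FKBP4, HSPH1, AHSA1, HSPA1B and HSPB1 rose by less, while DNAJB4, DNAJB5, HSPA4L, HSPA2, DNAJB11 and CDC37 fell. The calls of HSPA2 (adjusted p up to 0.127, without wtZFX replicate 3), DNAJB11 (0.0838, without wtZFX replicate 2) and CDC37 (0.0678, without wtZFX replicate 3) were lost when 1 library was left out. Of 40 IDs tested, 15 rose and 6 fell (21 called); over all 19376 genes 42.3% were called, 23.2% higher and 19.2% lower. The median log2 change was 0.05, against -0.02 for all genes. Among the called members, only BAG3 passed 1.5-fold. The kidney marker sum was 115 to 121 CPM with pCMV6 and 172 to 178 CPM with wtZFX, and its part in these results was not tested.

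BAG3 (ENSG00000151929.9, chromosome 10, 119651370 to 119677819) stood at 41.6, 43.0 and 43.4 CPM with pCMV6, at 73.9, 70.7 and 75.5 CPM with wtZFX and at 77.7, 70.1 and 73.1 CPM with ZFX12_13. Each construct library was above each vector library, and the constructs overlapped (log2 change 0.78, SE 0.06, adjusted p = 6.5e-11 with wtZFX; 0.79, SE 0.06, adjusted p = 9.3e-11 with ZFX12_13). DNAJB1, the main HSP40 of the cytosol, stood at 72.0, 74.8 and 69.0 CPM with pCMV6 and at 97.9, 95 and 94.6 CPM with wtZFX (a log2 difference of 0.41, SE 0.05, adjusted p = 5.5e-07). DNAJB2, a neuronal J-domain protein, rose from 31.3 ± 0.63 to 42.5 ± 1.4 CPM (log2 change 0.44, adjusted p = 1.3e-05). STUB1 (CHIP), the ligase that marks HSP70 clients for breakdown, rose from 32.8 ± 2.8 to 42.7 ± 3.3 CPM (log2 change 0.38), although 42.4% of its exon sequence is shared with JMJD8 on the other strand, and with GC and length offsets the change was 0.12 (adjusted p = 0.143). All 3 members tested of the small heat shock protein group rose, HSPB11 by 0.46, HSPB8 by 0.35 and HSPB1 by 0.19 on the log2 scale. HSPB1 lost its call without wtZFX replicate 2 (adjusted p = 0.0713) and stood at -0.05 with GC and length offsets. Of 3 small heat shock protein genes tested outside the set, 1 was called, higher.

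HSP90AA1 rose from 1774 ± 28 to 1991 ± 90 CPM (log2 change 0.17, adjusted p = 0.0366), HSPD1 from 562 ± 7.8 to 629 ± 24 CPM (0.16, adjusted p = 0.0262) and STIP1 from 310 ± 7.1 to 340 ± 8.7 CPM (0.13, adjusted p = 0.0237). These calls were each lost without 3 or more of the 6 libraries taken in turn, with adjusted p up to 0.148 for HSP90AA1 without wtZFX replicate 1, 0.122 for HSPD1 without wtZFX replicate 3 and 0.107 for STIP1 without wtZFX replicate 1. FKBP4 rose 1.23-fold, from 185 ± 1.3 to 228 ± 3.3 CPM (log2 fold change 0.30, SE 0.05, adjusted p = 3.1e-05), HSPH1 1.22-fold (0.29, adjusted p = 0.000571) and AHSA1 1.21-fold (0.28, adjusted p = 0.000351), and these held without any 1 library. DNAJB4 fell from 40.9, 41.1 and 41.5 CPM to 28.0, 29 and 29.2 CPM (log2 fold change -0.52, SE 0.07, adjusted p = 7.1e-07), with no overlap. HSPA4L, an HSP110, fell from 203 ± 3.6 to 166 ± 4.6 CPM (log2 change -0.29, adjusted p = 1.9e-05). HSPA8, HSP90AB1, HSF1 and HSF2 were not called, with log2 changes of 0.10, -0.03, -0.02 and 0.00.

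Many values with ZFX12_13 were near those with wtZFX, but both constructs were set against the same pCMV6 libraries, so the lists are not independent. HSPB8, HSPD1, HSPA2, DNAJB11 and CDC37 were called with wtZFX only. HSPE1, HSPA1A, DNAJB6, HSPA9 and TRAP1 were called with ZFX12_13 only. Against pCMV6, 16 of 40 IDs rose and 5 fell (21 called), where over all genes 36.6% were called, 20.9% higher and 15.7% lower, and the median was 0.12 against -0.01 for all genes. With GC and length offsets the share of rises among all called genes went from 57.1% to 47.9%, and with wtZFX from 54.7% to 47.7%. The kidney marker sum was 159 to 163 CPM with ZFX12_13, and its part in these results was not tested. BAG3, HSPE1 (0.48, adjusted p = 0.0162, from 3.85 ± 0.46 CPM), HSPA1B (0.46, SE 0.06, adjusted p = 5.3e-07), HSPA1A (0.45, adjusted p = 0.0441, with libraries that overlapped), STUB1, HSPB11 and DNAJB1 (0.35, adjusted p = 1e-05) rose, and DNAJB5 (-0.34), DNAJB4 (-0.31), HSPA4L (-0.25), TRAP1 (-0.16) and HSPA9 (-0.13) fell. Of these 21 calls, 9 were lost without 1 library or another, HSPE1 (adjusted p = 0.0815 without pCMV6 replicate 2), HSPA1A (0.158 without ZFX12_13 replicate 1), HSPA9 (0.184 without ZFX12_13 replicate 3) and TRAP1 (0.0874 without pCMV6 replicate 3) among them.

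Set directly against wtZFX, 5 members were higher with ZFX12_13 and 2 lower (7 called), where over all genes 20.4% were called, 9.73% higher and 10.6% lower; the median was 0.01 for the set and for all genes. DNAJB4 stood at 35.9, 32.1 and 31.5 CPM, above each wtZFX library and below each vector library (log2 difference from wtZFX 0.21, SE 0.07, adjusted p = 0.0343). HSPA2 was at 17.2 ± 0.60 against 13.9 ± 1.5 CPM (0.31, adjusted p = 0.0189), HSPE1 at 5.37 ± 0.36 against 3.94 ± 0.41 CPM (0.44, adjusted p = 0.0398), HSPA1B at 220.5 ± 10.8 against 193 ± 12 CPM (0.20, adjusted p = 0.0142) and CDC37 at 231 ± 6.5 against 210.1 ± 3.1 CPM (0.13, adjusted p = 0.0409). HSPA9 was lower, at 423, 385 and 362 against 454, 439.6 and 448 CPM (log2 difference -0.20, SE 0.05, adjusted p = 0.00673), and FKBP4 was lower by 0.16 (adjusted p = 0.0208). Only HSPA9 kept its call without any 1 library: without wtZFX replicate 3 adjusted p was 0.0738 for DNAJB4, 0.129 for HSPA2, 0.0959 for HSPE1, 0.12 for HSPA1B, 0.16 for CDC37 and 0.0589 for FKBP4.

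The siZFX and wtZFX comparisons share no library, so lowering ZFX in LN-229 and adding it in DKO cells can be set side by side. Of the members, 9 were called in both: HSP90AA1, STIP1, FKBP4, AHSA1, HSPH1, HSPD1 and HSPB8 were lower with siZFX and higher with wtZFX, DNAJB4 and HSPA2 were higher with siZFX and lower with wtZFX, and 0 moved the same way. Over the 15973 genes tested in both lines, 2950 (18.5%) were called in both and 81% of these moved in opposite directions, so opposite movement was the rule for genes at large. With the calls that hold when any 1 library is left out, 4 of the 9 remain: HSPB8, FKBP4, HSPH1 and DNAJB4. Sizes differed between the lines; HSPB8 changed by -2.51 with siZFX and by 0.35 with wtZFX, and DNAJB4 by 1.0 and -0.52. HSPA8 fell with siZFX and was not called with wtZFX, and BAG3 rose with wtZFX (0.78) and was not called with siZFX (-0.24, adjusted p = 0.0888). With siZFX and ZFX12_13, 8 members were called in both, and 6 of these in opposite directions; HSPA9 was lower and HSPA1A higher in both. Of these 8, DNAJB4 alone kept both calls when any 1 library was left out. Over all genes 16% were called in both, 78.3% of them in opposite directions.

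**Figure D5:**
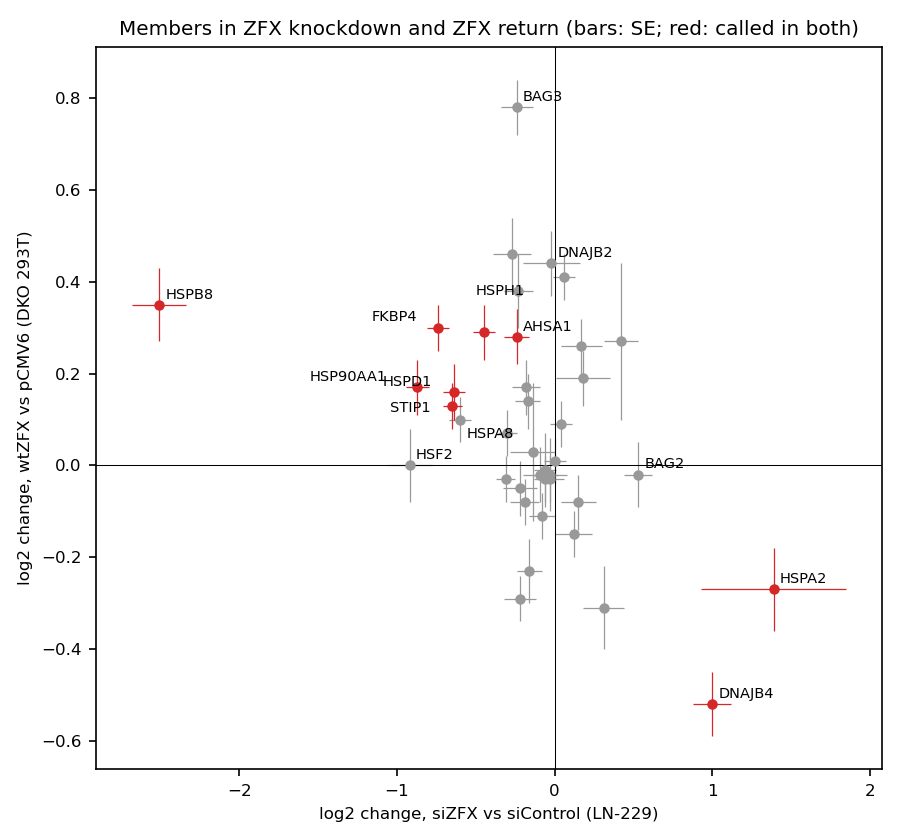
Log2 change with siZFX in LN-229 (horizontal) against log2 change with wtZFX in DKO cells (vertical) for the members tested in both lines, with bars for the SE and red for members called in both. The 9 red points lie in the upper left (7, lower with siZFX and higher with wtZFX) and lower right (DNAJB4 and HSPA2).

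Across the 6 comparisons of a treatment or construct with its control or of the constructs, 36 of 41 IDs were called at least 1 time and 15 in 4 or more. Over all 21087 genes tested in either line, 68.4% were called at least 1 time and 15.4% in 4 or more. A gene tested in 1 line only has fewer than 4 of these comparisons. Of the 21087 genes, 15973 were tested in both lines, as were 40 of the 41 IDs. The 15.4% therefore understates the share among genes tested in both lines. DNAJB4 was called in all 6, but its calls with siZNF593 and between the constructs were lost without 1 library or another. In the main fit HSF1, HSPA4, DNAJA2, CRYAB and 1 HSPA14 ID were called in none. Of the 7 members with a match to the heat shock element, 4 fell with siZFX (HSPD1, HSP90AB1, HSPA8, HSP90AA1). The median log2 change of these 7 was -0.31. Of the 27 without a match, 6 fell and 4 others rose (median -0.14), where 17.1% of all genes fell. With siZNF593 the order of the medians was the other way, -0.21 with a match (4 fell) and -0.29 without (15 fell, 2 rose). There 14.6% of all genes fell. The double knockdown had this order too, at -0.17 (4 fell, 1 rose) and -0.23 (10 fell, 1 rose), where 20.6% of all genes fell. The split was not recounted without double knockdown replicate 3, where CHORDC1 and CDC37 lost their calls. With wtZFX 2 of the 7 rose, HSPD1 and HSP90AA1 (median 0.01), as did 10 of the 27, of which 6 others fell (median 0.07), where 23.2% of all genes rose. Among the members described above, BAG3, DNAJB4, DNAJB5 and HSPB8 have no such match in this window.

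Related chaperones outside the set were counted from lists written from general knowledge, with earlier results of these data known. All subunits of TRiC, the ring that folds actin and tubulin, were tested. With siZNF593, 7 of 8 fell and 0 rose (median -0.32; 14.6% of all genes fell), led by CCT3, from 524 ± 14 to 342 ± 7.0 CPM (log2 fold change -0.62, SE 0.06, adjusted p = 4.6e-08). With siZFX 4 of 8 fell (median -0.19; 17.1% of all genes fell), in the double knockdown 2 fell and 1 rose, with or without its replicate 3, and with wtZFX and ZFX12_13 their log2 changes lay between -0.10 and 0.09 and between -0.05 and 0.13. Of 16 ER chaperones, 9 fell and 1 rose with each single siRNA, and 8 fell and 1 rose in the double knockdown, where 20.6% of all genes fell (12 fell and 0 rose without its replicate 3); DNAJB9, an ER J-domain protein, was the one that rose with siZFX (log2 change 0.89, SE 0.12) and with siZNF593 (0.78, SE 0.12), and it was also higher in siControl_2 than in siControl (0.55, SE 0.12). Of 13 other HSP70 and exchange factor genes, 7 fell and 1 rose with siZFX. These include HSPA6, an HSP70 known for strict induction by stress, from 4.74 ± 0.34 to 0.991 ± 0.22 CPM (log2 fold change -2.25, SE 0.26, adjusted p = 5.5e-07), and HSPA12A, a distant HSP70, from 27.5 ± 2.1 to 10.6 ± 0.83 CPM (log2 fold change -1.37, SE 0.11, adjusted p = 1.5e-09). With wtZFX, HSPA12A rose from 31.1 ± 1.1 to 60.3 ± 1.1 CPM (log2 fold change 0.96, SE 0.06, adjusted p = 2.8e-12), and with ZFX12_13 HSPA6 rose from 0.658 ± 0.17 to 2.05 ± 0.17 CPM (log2 fold change 1.62, SE 0.29, adjusted p = 9.8e-05). HSBP1, which binds and restrains HSF1, fell with siZFX (-0.47), siZNF593 (-0.77) and in the double knockdown (-0.84, SE 0.08, adjusted p = 2.6e-08; -0.76 without its replicate 3). Not all lists fell. In the double knockdown, 11 of 34 other J-domain genes rose and 5 fell (10 and 6 without its replicate 3). There 8 of 19 other HSP90 co-chaperone genes rose and 4 fell (7 and 5), where 17.6% of all genes rose. With siZFX these lists had 5 rises and 7 falls, and 4 and 4. With siZNF593 they had 6 and 6, and 2 and 4. Of 6 prefoldin genes, 0 were called in the double knockdown (1 fell without its replicate 3).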

How the data were processed

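The authors deposited raw gene counts per library (unstranded and 1 column per strand); STAR, HTSeq, DESeq2 and the build GRCh38 (hg38) are listed, without versions, in the submitters' processing notes. RNA was total RNA in TRIzol, and per the labels' protocols libraries used a NEBNext Ultra II kit. The unstranded counts were used: of all reads, 71.0% to 80.5% were counted on genes, and 9.49% to 11.1% lay over more than 1 gene and were not, which lowers overlapping genes. Gene IDs were named from GENCODE 29.

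Each line was fitted apart with edgeR 4.0.16 (quasi-likelihood, robust, TMM factors 0.952 to 1.05 and 0.979 to 1.02, filterByExpr) in R 4.3.3, with 1 term per group; 17684 and 19376 genes were tested, at a biological coefficient of variation of 11.2% and 5.26%. A call means an adjusted p (Benjamini-Hochberg, all genes tested) under 0.05. The SE is the size of the log2 change divided by the root of the F statistic. CPM use TMM-scaled totals; ZNF593 uses plain ones. Fits were tested on simulated counts. Members and lists were chosen with earlier results of these data known. Named were a core of 12 members, up to 3 called rises and 3 falls per comparison, members called in 4 of 6 comparisons, and up to 2 genes per other list and comparison. Alternatives were upper-quartile or RLE factors, no filter, 1 CPM in 3 libraries, a replicate block, both stranded columns summed, GC and length offsets, DESeq2 1.42.0, only the groups compared, other control sets, 1.5-fold, and each library left out. Protein sequences were not used here. Figures used matplotlib 3.10.9 and Python 3.11.15.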

Additional observations from a re-analysis of the deposited data

Results flagged for a closer look

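For 5 members the change with both siRNAs differed from the sum of the single-siRNA changes by a direct test (edgeR's quasi-likelihood test, adjusted p under 0.05, all above the sum). The excess on the log2 scale was 0.93 for HSP90AA1, 0.65 for STIP1, 0.62 for HSPA8, 0.61 for DNAJB11 and 0.47 for HSPA9.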

How the results depend on the processing

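Of 142 calls of a member in a comparison, 89 held under every alternative other than the 1.5-fold rule. Fitting only the groups compared gave 27 calls for siZFX, 15 for the control sets and 3 for ZFX12_13 against wtZFX. Over all genes it gave 3775 rises and 4224 falls of 15975 for siZFX, against 2439 and 3025 of 17684 in the main fit. For the control sets it gave 1831 and 1869 of 15948, against 961 and 863 of 17684. Between the constructs it gave 1465 and 1710 of 18594, against 1885 and 2059 of 19376. GC and length offsets gave 15 calls for the control sets and 8 for non-additivity. Over all genes these offsets gave 1649 rises and 1621 falls for the control sets and 1113 and 938 for non-additivity. With no filter ZFX12_13 against wtZFX had 4. At 1.5-fold or more, 9 calls were left for siZFX, 6 for siZNF593, 4 for the double knockdown, 2 for the control sets, 11 between the single siRNAs, 1 each for wtZFX and ZFX12_13, and 0 between the constructs (7 past the adjusted p alone, 5 by DESeq2). Leaving out 1 library gave 3 to 5 calls for the control sets, 2 to 11 for non-additivity, 13 (without pCMV6 replicate 3) to 26 (without ZFX12_13 replicate 3) for ZFX12_13, and 1 (without wtZFX replicate 3) to 8 between the constructs. Directions reversed with GC and length offsets in the double knockdown for HSPB1 (0.24, adjusted p = 0.00022 by edgeR's quasi-likelihood test) and HSF1 (0.19, adjusted p = 0.0184), both called higher there. They also reversed there for STUB1 (0.25, adjusted p = 0.232) and CDC37 (0.01, adjusted p = 0.865). With these offsets HSPB1 reversed too with wtZFX (-0.05) and ZFX12_13 (-0.01). With siControl in place of siControl_2, CHORDC1 (-0.23) and CRYAB (1.04) reversed, and the double knockdown had 28 calls. Over all 17684 genes this control gave 3315 rises and 3884 falls, against 3116 and 3636 with siControl_2. The causes of these changes were not tested. Replicate numbers did not pair the libraries (same-numbered libraries correlated at -0.239 to 0.236 in their deviations from the group means). With a replicate block the counts were 17 for siZFX, 25 for siZNF593, 21 for the double knockdown, 5 between control sets, 24 between single siRNAs, 5 for non-additivity, 21 for wtZFX, 21 for ZFX12_13 and 6 between constructs. Low counts limit HSPA2 in LN-229 and HSPE1 in DKO cells, each at a few CPM or less.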
